A study of Mus musculus with 12 samples.

Results

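The transcripts of 9 integrin chains and adhesion ligands were followed in M1-activated bone marrow-derived macrophages (BM-Mɸs): Itgal, Itgax, Itgb2, Itga4, Itga5, Itgav, Itgb1, Icam1 and Vcam1. They were chosen by gene name from the deposited table and are 9 of its 22243 genes. All 9 passed the filter of a mean of at least 1 TPM (a transcript abundance scaled to the library and to transcript length), as did 8780 genes in all. The 12 libraries came from 6 ErbB4myeKO mice (LysMCre with floxed ErbB4) and 6 ErbB4FF littermates, 1 of each from 6 litters on the C57Bl/6 strain background. Both groups carry the floxed ErbB4 alleles and differ by LysMCre, which is driven by the Lyz2 gene of myeloid cells. Bone marrow was grown into macrophages with M-CSF from CMG14-12 conditioned medium, then given 100 U/mL IFN-γ for 16 h and 100 ng/mL LPS for 6 h, so no library is from resting cells. The mice used for sequencing have no age or sex on the labels.

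Integrins are heterodimers of an α and a β chain that tie the cell to other cells and to matrix. Leukocytes carry β2 integrins, among them LFA-1 (Itgal with Itgb2), Mac-1 (Itgam with Itgb2) and CD11c/CD18 (Itgax with Itgb2), while β1 pairs with Itga4 to give VLA-4, with Itga5 to give the fibronectin receptor, and with Itgav. ICAM-1 is the ligand of LFA-1 and Mac-1, VCAM-1 is the ligand of VLA-4, and both are induced by NF-κB in inflamed endothelium and in activated macrophages. The short tails inside the cell bind the adaptors, talin and kindlin on the β chain, that switch the extracellular head between its low and high affinity states.

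Those tails are what the chains share most clearly. All 5 α members encode GFFKR, the membrane-proximal motif that clasps the β chain in the resting receptor. Its codons are shown in capitals in the coding strand of the reference transcripts (GENCODE M21, GRCm38), to show how far the coding sequence differs between members that keep the same residues.
Itga4: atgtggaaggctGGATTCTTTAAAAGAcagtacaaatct
Itga5: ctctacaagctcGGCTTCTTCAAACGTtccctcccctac
Itgal: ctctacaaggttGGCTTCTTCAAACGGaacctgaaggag
Itgav: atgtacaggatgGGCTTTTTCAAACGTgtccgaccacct
Itgax: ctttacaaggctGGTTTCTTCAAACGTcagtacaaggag

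The β chains carry a pair of NPxY-type sites, the docking sites of talin and kindlin, with the codons in capitals below. Itgb1 has NPIY and NPKY, and Itgb2 has NPLF and NPKF in their place, so that the last residue of each site is tyrosine in β1 and phenylalanine in β2.
Itgb1 NPIY: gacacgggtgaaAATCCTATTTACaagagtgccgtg
Itgb1 NPKY: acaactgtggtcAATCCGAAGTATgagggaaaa
Itgb2 NPLF: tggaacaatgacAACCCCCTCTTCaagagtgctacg
Itgb2 NPKF: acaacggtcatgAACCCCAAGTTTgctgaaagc

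In all 7 chains the first window shown spans the last exon junction. Itgal (chr7:127296260-127335138) and Itgax (chr7:128129547-128150657) lie on the same chromosome, as do Itga4 (chr2:79255426-79333123) and Itgav (chr2:83724397-83806916). The others are Itga5 (chr15:103344286-103366763), Itgb1 (chr8:128685654-128733200), Itgb2 (chr10:77530252-77565708), Icam1 (chr9:21015985-21028817) and Vcam1 (chr3:116109949-116129688). Itga5 and Vcam1 are on the minus strand and the rest are on the plus strand. Each member is represented by 1 principal transcript, from 2535 bases in Icam1 to 9767 bases in Itga4. The share of a transcript's 31-mers found in other transcripts of the same gene, which kallisto has to divide between isoforms, was 99.4% for Itgal, 99.0% for Itga5, 98.0% for Itgav, 87.5% for Itgb2 and 81.1% for Itgb1, and 13.9% to 37.2% for the other 4. A further 12.7% of those of Itgax are found in other genes, mainly the related Itgad.

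The activated cells carried the markers of macrophages, and neither the targeted gene nor the gene that carries the Cre separated the groups in all litters. The Erbb4 transcript was between 0.280 and 0.852 TPM in libraries labelled ErbB4myeKO and between 0.372 and 0.716 TPM in those labelled ErbB4FF, a level below the filter. This is a value for the transcript as a whole, so whether the floxed part was lost cannot be read from it. Lyz2, whose locus drives LysMCre, was at 4272, 4395, 3116, 4491 and 7563 TPM in the libraries labelled ErbB4myeKO of litters 1 to 5 and at 8370, 7823, 6910, 10340 and 13260 TPM in their littermates labelled ErbB4FF. In litter 6 the order was turned, with 7997 TPM in the library labelled ErbB4myeKO and 2964 TPM in the one labelled ErbB4FF. The log2 difference was 1.43 in litter 6 and from -1.20 to -0.81 elsewhere, and the mean over all litters was -0.59 (limma, unadjusted p = 0.121). The mean without litter 6 was -0.99, given without a p-value because that litter is left out for its Lyz2 difference. Litter 6 thus goes against the other litters in the gene of the Cre. Genotypes below are those of the labels, whether those of litter 6 are exchanged was not tested, and differences between genotypes of named genes are followed by their values without that litter. Adgre1 (F4/80) was between 662 and 1060.0 TPM and Cd68 between 314 and 571 TPM. The 10 lymphocyte markers summed to at most 3.33 TPM. Listed transcripts held 59.0% to 64.9% of the TPM of a library in 5 litters, but 71.4% and 74.7% in the libraries of litter 5, which also stood apart in the members and are given separately wherever a result rests on them. Ddx3y and Eif2s3y, genes of the Y chromosome, were listed at 0 in the 4 libraries of litters 5 and 6 and were present in the other 8.

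Icam1 was the most abundant of the 9 transcripts in all 12 libraries, and the order of mean levels ran Icam1, Itgb2, Itgal, Itga5, Itgb1, Vcam1, Itga4, Itgav and Itgax. The means over 12 libraries were 759 ± 215 TPM (SD, n = 12) for Icam1, 375 ± 102 TPM for Itgb2, 325 ± 162 TPM for Itgal, 306 ± 86.7 TPM for Itga5 and 256 ± 38.7 TPM for Itgb1. A lower tier held Vcam1 at 84.2 ± 30.3 TPM, Itga4 at 68.6 ± 38.5 TPM, Itgav at 38.4 ± 23.5 TPM and Itgax at 9.62 ± 3.38 TPM. Neighbours in this order were compared over the 6 litter means, and 3 of the 8 pairs of neighbours kept their order in every litter. Icam1 stood 1.02 ± 0.38 above Itgb2, Itgb1 stood 1.67 ± 0.46 above Vcam1, and Itga4 stood 1.08 ± 0.85 above Itgav (differences of log2(TPM + 0.5), SD over n = 6 litters). Each of the 3 had the smallest p that 6 litters allow (two-sided exact sign-flip test, p = 0.0312, adjusted over the 8 pairs 0.0833). The other neighbours, among them the 4 most abundant integrin chains, did not differ beyond the spread between litters (exact p between 0.125 and 0.938). For Itgal and Itga5 the mean log2 difference was -0.23 ± 0.94, opposite to their order by mean TPM. Without litter 5, 5 of the 8 pairs kept their order in every litter.

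**Figure D1:**
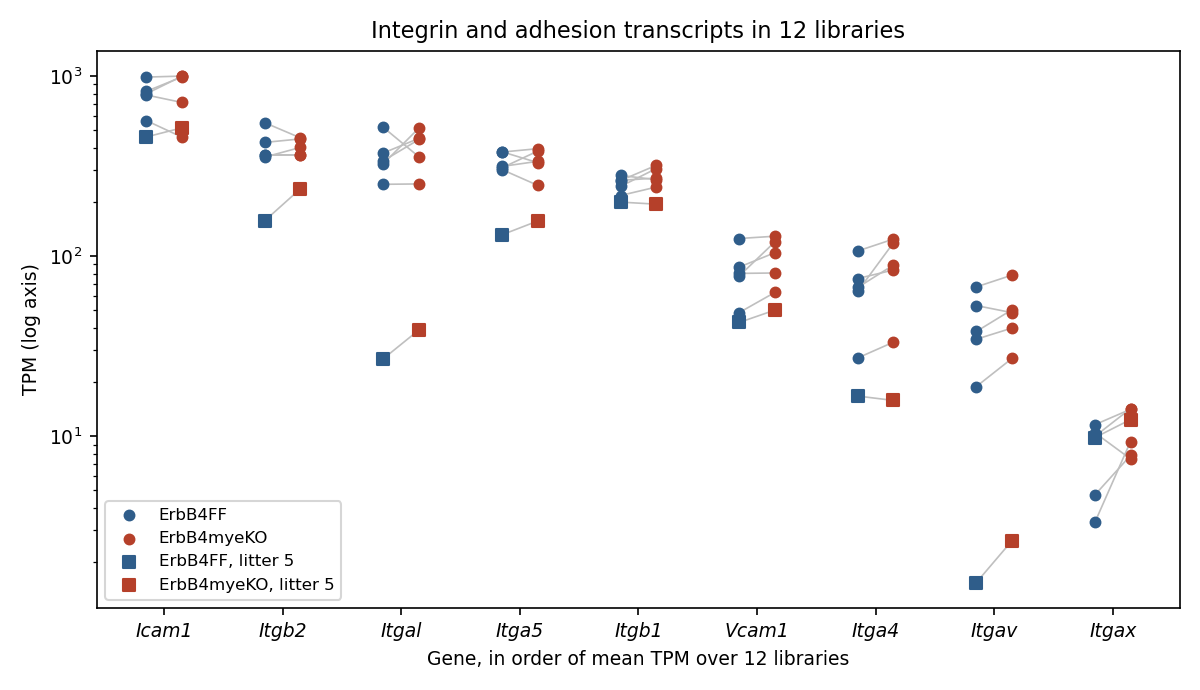
TPM of the 9 transcripts (log axis) in the 6 ErbB4FF libraries (blue) and the 6 ErbB4myeKO libraries (red), with a grey line joining littermates and squares for litter 5. Icam1 is highest throughout, Itgax lies between 3.33 and 14.25 TPM, and the squares of Itgal and Itgav fall far below the other litters.

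The depth behind these levels can be read from the authors' mean of normalized estimated counts, which was 10970 for the Icam1 transcript and between 1128 and 7972 for the 7 members between it and Itgax. For Itgax it was 222, so that its values rest on the fewest reads. Read counts per library are not part of the table, and precision is given by the spread between litters.

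Upstream sequence was examined for the 6 members that the RefSeq promoter table holds (GRCm38.p6), over the 250 bases before the start. Icam1, the most abundant member, has the κB-like letters GGNNTTTCC at 2 places on the strand opposite to the one shown. The matches begin 153 and 84 bases before the start and are in capitals, as is a GC box (GGGCGG) that begins 17 bases before it. On the strand shown they read GGAAATTCC, GGAAATACC and, for the GC box, CCGCCC.
Icam1, chr9:21015690-21015939, plus strand: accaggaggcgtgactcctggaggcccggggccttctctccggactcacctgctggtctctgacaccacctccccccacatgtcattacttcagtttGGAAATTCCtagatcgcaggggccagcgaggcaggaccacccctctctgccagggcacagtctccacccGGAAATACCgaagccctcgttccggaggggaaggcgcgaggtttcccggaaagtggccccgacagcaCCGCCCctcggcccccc

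Itgb1, the β chain with the smallest variation of the 9, has 1 κB-like match and 1 GC box. Its sequence is shown for comparison with that of Itgax, the least abundant member, in which none of the letters searched occurs.
Itgb1, chr8:128685404-128685653, plus strand: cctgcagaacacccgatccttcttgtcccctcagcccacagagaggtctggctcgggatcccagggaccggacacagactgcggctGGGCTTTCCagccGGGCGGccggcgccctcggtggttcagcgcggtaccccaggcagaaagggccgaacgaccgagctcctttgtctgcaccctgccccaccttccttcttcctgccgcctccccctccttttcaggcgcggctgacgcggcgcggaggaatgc
Itgax, chr7:128129300-128129549, plus strand: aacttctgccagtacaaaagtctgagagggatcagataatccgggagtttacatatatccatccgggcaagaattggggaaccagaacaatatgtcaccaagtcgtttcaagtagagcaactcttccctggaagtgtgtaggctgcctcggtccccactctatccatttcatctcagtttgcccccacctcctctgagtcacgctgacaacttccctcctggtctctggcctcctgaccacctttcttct

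On either strand, the κB-like letters occur in 4.93% of 32851 RefSeq promoter windows of this length and the GC box in 32.7%. The PU.1-like letters GAGGAAG occur in 10.6% and, among these members, only in Itgav, while Itga4 and Itga5 have a GC box as the only match. A match describes these letters and not binding.

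The comparison of ErbB4myeKO with ErbB4FF littermates asked whether loss of ErbB4 in myeloid cells goes with a change in the adhesion machinery of M1 cells. The mean difference between littermates was above 0 for all 9 members, with a median of 0.22 on the log2(TPM + 0.5) scale, whereas the median over all genes tested was -0.00068 and 49.8% of them had a mean above 0. None of the 9 passed an adjusted p of 0.05 in limma, fitted with a litter block and adjusted by Benjamini-Hochberg over 8780 genes (smallest adjusted p = 0.603 for a member and for any gene), and neither did any other gene (percent called 0.0). At an unadjusted p under 0.05, 3 members were higher and none was lower, where 3.83% of all genes tested were higher and 4.38% lower. The groups of libraries overlapped for all 9 members, and did not for 0.0456% of genes. Without litter 6, where Lyz2 was turned, the mean difference remained above 0 for all 9 members, from 0.10 for Itga5 to 0.43 for Itgax, but 0 members had an unadjusted p under 0.05, where 2.65% of 8693 genes were higher and 3.17% lower. The count of 9 above 0 did not hold without litter 4, where Itga5 was at -0.016, or without litter 5, where Itgb2 was at -0.0063 and Itga5 at -0.0050. A fit without the litter block also gave 0 members at an unadjusted p under 0.05. Fewer cells of a type and less RNA per cell cannot be told apart in these bulk libraries.

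**Figure D2:**
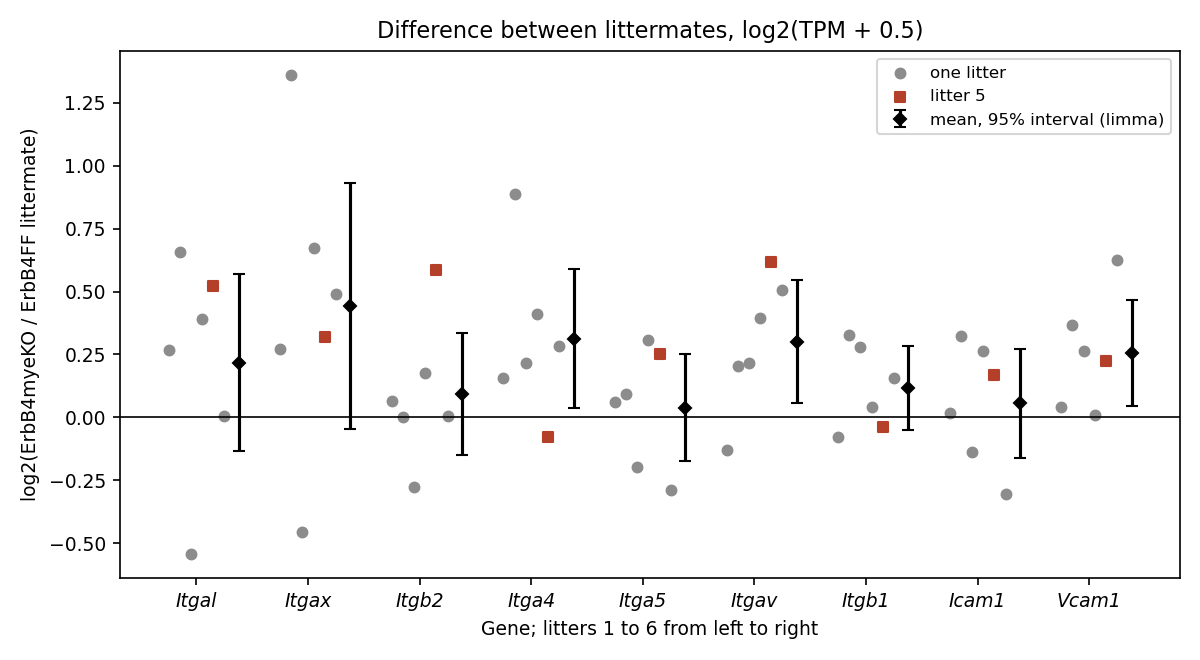
Log2 ratio of the ErbB4myeKO library to its ErbB4FF littermate for each member, with 1 point per litter in the order 1 to 6, a red square for litter 5, and a black diamond for the mean with its 95% interval from limma. The intervals of Itga4, Itgav and Vcam1 lie above 0, and Vcam1 has all 6 points above 0.

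Among the β2 integrins, Itgax had the largest mean difference of the 9 and Itgb2 one of the smallest. Itgax, the α chain of CD11c/CD18 and a complement receptor, had its lowest, median and highest levels at 7.49, 10.9 and 14.25 TPM in ErbB4myeKO and at 3.33, 9.92 and 11.6 TPM in ErbB4FF. It was higher in the ErbB4myeKO littermate in 5 of 6 litters, with 1.36 in litter 2 as the largest difference and -0.46 in litter 3 as the exception. The mean was 0.44 ± 0.21 on the log2(TPM + 0.5) scale (limma estimate ± SE, n = 6 litters, p = 0.0694, exact permutation p = 0.125, adjusted p = 0.603). The estimate was 0.62 without litter 3 (limma, unadjusted p = 0.0096), 0.26 without litter 2 (limma, unadjusted p = 0.175) and 0.43 without litter 6 (limma, unadjusted p = 0.127).

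CD11c is also a marker of dendritic cells, and of the 10 dendritic cell markers Siglech and Cd209a were listed at 0 in all libraries, Flt3 was at most 0.0789 TPM and Zbtb46 at most 0.394 TPM. The list summed to between 10.2 and 34.2 TPM in ErbB4myeKO and between 5.23 and 25.5 TPM in ErbB4FF, and 8 of the 10 had a mean under 1 TPM. Xcr1, between 2.56 and 29.0 TPM, was the largest of them in 11 of 12 libraries, and Clec9a was at most 4.39 TPM. Xcr1 was 0.63 ± 0.23 higher in ErbB4myeKO on the log2 scale (limma, p = 0.028, exact permutation p = 0.0938, adjusted p = 0.603). Without litter 6 the difference of Xcr1 was 0.62 (limma, unadjusted p = 0.0606). Its part in the level of Itgax was not tested.

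Itgal, the α chain of LFA-1, ranged from 39.0 through a median of 401 to 516 TPM in ErbB4myeKO and from 27.0 through 333 to 519 TPM in ErbB4FF. The lowest value of each group was the litter 5 library, and the next lowest were 252 and 251 TPM. The difference was 0.22 ± 0.15 (limma log2 estimate ± SE, p = 0.19, exact permutation p = 0.281, adjusted p = 0.669), with ErbB4myeKO higher in 5 of 6 litters and at -0.54 in litter 3, as for Itgax. It was 0.37 without litter 3 (limma, unadjusted p = 0.00869), 0.13 without litter 2 (limma, unadjusted p = 0.432) and 0.26 without litter 6 (limma, unadjusted p = 0.182). Itgb2 (CD18), the chain that every β2 integrin needs at the surface, had lowest, median and highest levels of 237, 384 and 455 TPM in ErbB4myeKO and of 158, 365 and 552 TPM in ErbB4FF. Its difference was 0.09 ± 0.10 (limma log2 estimate ± SE, p = 0.405, exact permutation p = 0.531, adjusted p = 0.791), with -0.0063 without litter 5 and 0.11 without litter 6.

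Itgam (CD11b), which shares Itgb2 with both α chains, went the other way in 5 of 6 litters, with litter 6 as the exception. It was between 86.9 and 149 TPM in ErbB4myeKO (median 111) and between 101 and 175 TPM in ErbB4FF (median 121), a difference of -0.20 ± 0.09 (limma log2 estimate ± SE, p = 0.0608, exact permutation p = 0.156, adjusted p = 0.603). Without litter 6 it was -0.29 (limma, unadjusted p = 0.00396). Its level is uncertain, since 75.02% of its 31-mers occur in other genes, mainly in the overlapping model Gm49368.

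Among the β1 and αv chains, Itga4 and Itgav were higher in ErbB4myeKO at an unadjusted p under 0.05 and Itga5 and Itgb1 were not separated from 0. Itga4, the VCAM-1 and fibronectin binding chain of VLA-4, had lowest, median and highest levels of 15.8, 86.6 and 124.5 TPM in ErbB4myeKO and of 16.7, 65.5 and 107 TPM in ErbB4FF. Litters 5 and 6 gave the lowest pair of values in each group, the latter at 33.3 and 27.2 TPM. ErbB4myeKO was higher in 5 of 6 litters, by 0.89 in litter 2 and by 0.16 to 0.41 in the other 4, and was at -0.08 in litter 5.

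The estimate for Itga4 was 0.31 ± 0.12 (limma log2 ± SE, p = 0.032, adjusted p = 0.603), a 1.24-fold difference, with an exact permutation p of 0.0625 over the 64 swaps within litters. Itgav, the chain shared by the RGD-binding vitronectin and TGF-β activating receptors, ran from 2.63 through 44.3 to 78.5 TPM in ErbB4myeKO and from 1.54 through 36.4 to 67.6 TPM in ErbB4FF, the lowest of each again in litter 5. It was higher in 5 of 6 litters and lower in litter 1, and the estimate was 0.30 ± 0.11 (limma log2 ± SE, p = 0.0224, adjusted p = 0.603), a 1.23-fold difference (exact permutation p = 0.0625). Without litter 2 the estimate for Itga4 was 0.20 (limma, unadjusted p = 0.0558), a smaller difference, whereas it was 0.29 without litter 4 (limma, unadjusted p = 0.0785) and 0.32 without litter 6 (limma, unadjusted p = 0.0603), close to the value over all litters. The estimate for Itgav was 0.28 without litter 4 (limma, unadjusted p = 0.0621), 0.24 without litter 5 (limma, unadjusted p = 0.059) and 0.26 without litter 6 (limma, unadjusted p = 0.0662).

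Itga5, the α chain of the fibronectin receptor, had medians of 334 TPM in ErbB4myeKO and 313 TPM in ErbB4FF, within ranges of 157 to 396 and 132 to 380.5 TPM. Its difference was 0.04 ± 0.09 (limma log2 estimate ± SE, p = 0.689, exact permutation p = 0.688), with a 95% interval from -0.17 to 0.25. It was -0.016 without litter 4, -0.0050 without litter 5 and 0.10 without litter 6. Itgb1, the common β chain, was the steadiest member, between 195 and 319.9 TPM in ErbB4myeKO and between 199.9 and 281 TPM in ErbB4FF, with medians of 269 and 254 TPM. Its difference was 0.12 ± 0.07 (limma log2 estimate ± SE, p = 0.149, exact permutation p = 0.188, adjusted p = 0.653), and 0.11 without litter 6.

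Of the ligands, Vcam1 was the only member higher in ErbB4myeKO in 6 of 6 litters, a pattern seen in 2.51% of all genes tested (2.31% were lower in all 6), and Icam1 was not separated from 0. Vcam1 had lowest, median and highest levels of 50.2, 92.6 and 129 TPM in ErbB4myeKO and of 42.9, 79.0 and 125.5 TPM in ErbB4FF. The difference was 0.01 in litter 4 and 0.04 in litter 1, between 0.23 and 0.37 in litters 2, 3 and 5, and 0.63 in litter 6, the litter in which Lyz2 was turned. The estimate was 0.25 ± 0.09 (limma log2 ± SE, p = 0.0235, adjusted p = 0.603), a 1.19-fold difference, and the exact permutation p was 0.0312, the smallest that 6 litters allow. That p and the count of 6 litters rest on the labels of litter 6, and with 5 litters the smallest exact p is 0.0625. Without litter 6 the estimate was 0.18 (limma, unadjusted p = 0.0601), and without litter 2 it was 0.23 (limma, unadjusted p = 0.0581). With a covariate from Y-linked genes it was 0.22 (limma, unadjusted p = 0.0517).

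Icam1 had medians of 853 TPM in ErbB4myeKO and 793 TPM in ErbB4FF, within ranges of 459 to 1002 and 459.8 to 989 TPM. ErbB4myeKO was higher in 4 of 6 litters, and the estimate was 0.06 ± 0.09 (limma log2 ± SE, p = 0.566, exact permutation p = 0.562, adjusted p = 0.864), with a 95% interval from -0.16 to 0.27. It was 0.13 without litter 6, 0.0019 without litter 2 and 0.014 without litter 4. Its lowest levels came from litters 5 and 6 in each group. Endothelial cells carry both ligands, and the endothelial markers summed to between 4.20 and 14.7 TPM in ErbB4myeKO and between 2.78 and 18.8 TPM in ErbB4FF, with Kdr between 1.68 and 18.8 TPM, Tek listed at 0 and Cdh5 at most 0.438 TPM. The 10 stromal markers summed to between 9.28 and 107 TPM in ErbB4myeKO and between 16.1 and 101 TPM in ErbB4FF. The part of stromal cells in the level of Vcam1 was not tested.

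NF-κB targets and M1 genes are induced by the same stimuli as the ligands. Of 10 NF-κB targets, 4 had a mean difference above 0 and 1 passed an unadjusted p of 0.05, the inhibitor-like cofactor Bcl3, at -0.32 ± 0.12 (limma log2 estimate ± SE, p = 0.0257, exact permutation p = 0.0625, adjusted p = 0.603). Of 10 M1 genes, 4 had a mean difference above 0, the cytokines Il12b, Tnf and Il6 and the chemokine Cxcl9, and 1 was higher at that p and 1 was lower. Nos2 had the largest difference of the 10, lower in 4 of 6 litters and higher in 1 (-2.22 ± 1.385, limma, p = 0.149, exact permutation p = 0.25, adjusted p = 0.653). It ranged from 0 to 139 TPM, with libraries listed at 0 in both groups. Its difference was -3.445 without litter 1 and -1.315 without litter 6. Il12b, a subunit of IL-12 and IL-23, was higher in 6 of 6 litters (1.19 ± 0.47, limma, p = 0.0349, exact permutation p = 0.0312, adjusted p = 0.603), and the chemokine Cxcl10 was lower in 6 of 6 (-0.18 ± 0.06, limma, p = 0.0214, exact permutation p = 0.0312, adjusted p = 0.603). Tnf was at 0.51 ± 0.23 (limma, p = 0.0608, exact permutation p = 0.0312, adjusted p = 0.603), above 0 in 6 of 6 litters, and Il6 at 0.71 ± 0.33 (limma, p = 0.0623, exact permutation p = 0.156, adjusted p = 0.603), above 0 in 5 of 6. Without litter 2, where the differences of all 3 cytokines were largest, they were 0.75 for Il12b, 0.26 for Tnf and 0.41 for Il6. Of 8 macrophage markers, the Fc receptor Fcgr1 was lower in 6 of 6 litters (-0.86 ± 0.25, limma, p = 0.00987, exact permutation p = 0.0312, adjusted p = 0.603) and the other 7 did not pass that p, among them Lyz2, which was lower in litters 1 to 5 and higher in litter 6. Without litter 6 the limma differences were -0.89 for Fcgr1 (unadjusted p = 0.021), 1.27 for Il12b (0.0543), 0.59 for Tnf (0.0611), 0.79 for Il6 (0.0786), -0.13 for Cxcl10 (0.0611) and -0.33 for Bcl3 (0.0511). In litter 6 itself the differences were -0.70 for Fcgr1, 0.80 for Il12b, 0.10 for Tnf and -0.39 for Cxcl10. These genes are named above with the same direction in all 6 litters. Their sign in litter 6 is thus part of that count and tells nothing of its labels.

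Since integrin chains reach the surface as dimers, each α chain was also set against its β chain within a library, which does not depend on scaling. Itgal was at a median of 89.6% of Itgb2 in ErbB4myeKO and 88.4% in ErbB4FF, Itgam at 34.0% and 38.1%, and Itgax at 2.85% and 2.30%. Itga5 was at a median of 107% of Itgb1 in ErbB4myeKO and 132% in ErbB4FF, Itga4 at 32.2% and 25.8%, and Itgav at 15.6% and 14.3%. The 3 α chains of β1 together exceeded Itgb1 in the 10 libraries of litters 1 to 4 and 6, with sums of 308 to 555 TPM, and were below it in litter 5, with 175 TPM in ErbB4myeKO and 150 TPM in ErbB4FF.

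None of the 6 ratios computed differed between littermates beyond their spread (two-sided exact permutation test, raw p from 0.125 to 0.594, adjusted over the 6 from 0.375 to 0.594). The nearest was Itga4 over Itgb1, higher in 4 of 6 litters by a mean of 0.20 ± 0.24 on the log2 scale (SD, n = 6, exact permutation p = 0.125). Without litter 6 the mean differences of the 6 ratios were between -0.40 for Itgam and 0.32 for Itgax over Itgb2. Without litter 2 they were 0.15 for Itgax and 0.019 for Itgal over Itgb2 and 0.13 for Itga4 over Itgb1, and without litter 5 they were -0.14 for Itgam over Itgb2 and 0.092 for Itgav over Itgb1. The ratios of litter 5 stood apart. Itgal was at 16.5% and 17.1% of Itgb2, against 68.9% to 141% in the other litters, Itgav was at 1.35% and 0.771% of Itgb1, against 8.69% to 25.6%, and Itgax was at 5.23% and 6.24% of Itgb2, against 0.912% to 3.90% (ErbB4myeKO and ErbB4FF, described with no test).

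**Figure D3:**
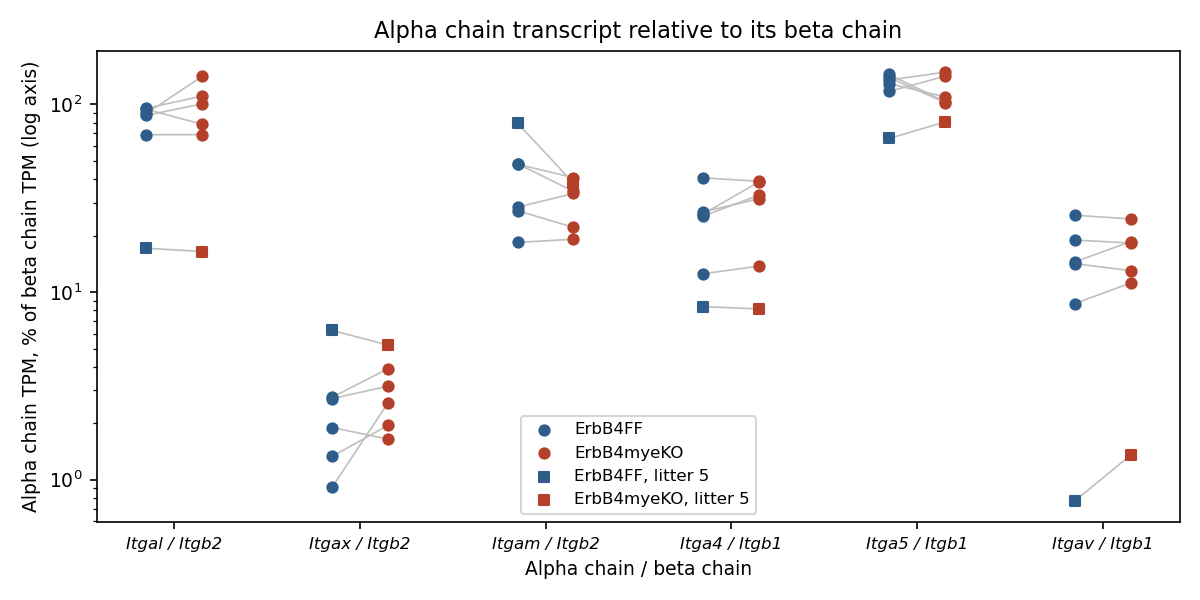
Alpha chain TPM as a percent of its beta chain TPM (log axis) in the ErbB4FF (blue) and ErbB4myeKO (red) libraries, with lines joining littermates and squares for litter 5. Outside litter 5, Itgal lies between 68.9% and 141% and Itga5 between 102% and 148.5% of their beta chains, and Itgal and Itgav fall below all other litters in litter 5.

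Differences between litters made up most of the variation of the members. They held 98.6% of the variance of log2(TPM + 0.5) for Itgav, 97.2% for Itgal, 95.4% for Itga4 and 94.9% for Itga5, and 60.9% for Itgax, beside a median of 78.1% over all genes tested. Without litter 5 these shares were 92.1%, 63.1%, 88.4%, 70.5% and 59.6%, beside a median of 67.7%. Itga4 and Itgav thus varied between litters also without litter 5, with litter means that ranged over 1.92 and 1.67 on the log2 scale, and Itgal and Itga5 over 0.77 and 0.50, where the median gene ranged over 0.77.

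Both libraries of litter 5 had low levels of most members, and the distance from the other litters differed greatly between them. The litter mean minus the mean of the other litters was -4.09 for Itgav on the log2 scale, -3.50 for Itgal, -2.10 for Itga4, -1.22 for Itga5 and -1.07 for Itgb2. These are 5 of 9 members more than 1 log2 unit below, where 14.2% of all genes tested were. It was -0.91 for Vcam1, -0.70 for Icam1, -0.43 for Itgb1 and 0.34 for Itgax.

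Over all genes, levels in litter 5 went with transcript length. The median distance was 0.88 for transcripts of up to 1000 bases and -0.71 for those over 5000 bases, and in the latter class the other 5 litters had medians between -0.10 and 0.28. Itga4 (9767 bases), Itgav (7054 bases) and Itgal (5195 bases) are the longest members and had the 3 lowest values, though only 0.296% of genes lay lower than Itgav and 0.558% lower than Itgal in litter 5. Between littermates, the median difference of transcripts over 5000 bases was 0.06 over the litters and 0.02 in litter 5, but 0.15 in litter 6 and 0.10 in litter 2. With each library centred by transcript length, a setting chosen after seeing the data, the difference between genotypes was 0.24 for Itga4 (limma, unadjusted p = 0.0621), 0.25 for Itgav (limma, unadjusted p = 0.0465) and 0.24 for Vcam1 (limma, unadjusted p = 0.02).

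**Figure D4:**
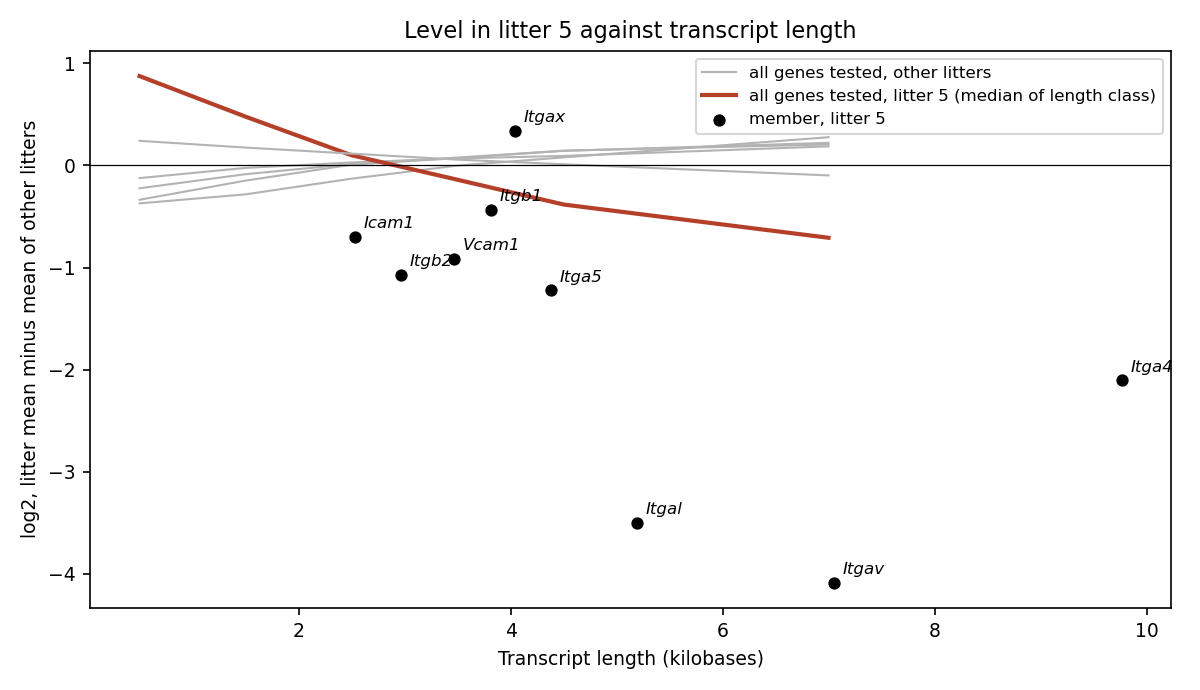
Mean log2(TPM + 0.5) of litter 5 minus that of the other litters against transcript length in kilobases, for the 9 members (black points) and as the median of all genes tested in 6 length classes (red line, drawn at a point within each class), with the same medians for the other 5 litters in grey. The red line falls from 0.88 to -0.71, and 8 of the 9 members lie below it while Itgax lies above.

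Other markers moved with litters 5 and 6 too. The 10 neutrophil markers summed to 215 and 185 TPM in litter 5 and to 371 and 153 TPM in litter 6, against 39.7 to 72.8 TPM in the other 4 litters. S100a8 and S100a9 made up most of the sum, Retnlg was listed at 0 in all libraries and Mpo was at most 0.549 TPM. Camp, a granule peptide of neutrophils at 0.650 to 10.5 TPM, was the 1 of these markers that also went with genotype at an unadjusted p under 0.05, higher in ErbB4myeKO in 6 of 6 litters (0.45 ± 0.18, limma, p = 0.0369, exact permutation p = 0.0312, adjusted p = 0.603). The macrophage receptor Csf1r was lowest in litter 5, with 168 TPM in the ErbB4FF library, beside 298 to 473 TPM in the other litters, and the efferocytosis receptor Mertk was at 36.0 and 35.4 TPM in litter 5 and 63.1 and 45.4 TPM in litter 6, beside 134 to 175 TPM. Their part in the levels of the members was not tested, and litter cannot be told apart from the batch, a letter that the labels give to each pair of littermates without saying what it stands for. Litters 5 and 6 are also those in which Ddx3y and Eif2s3y were listed at 0 and the Y-linked Kdm5d was lowest, at 0.202 to 0.406 TPM against 1.26 to 2.37 TPM in the other litters, so that their levels cannot be told apart from sex as read from those genes.

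Of 13 other α chains, Itgam, Itga9 and Itga6 had a mean of at least 1 TPM, at 123, 3.08 and 1.86 TPM. Of 6 other β chains, Itgb5, Itgb7 and Itgb8 did, at 22.6, 21.9 and 10.6 TPM. Itgb8, which pairs only with αv and activates TGF-β, was higher in ErbB4myeKO in 6 of 6 litters, by 0.07 in litter 6 to 1.78 in litter 2. It was between 0.408 and 42.6 TPM in ErbB4myeKO (median 7.72) and between 0.275 and 24.2 TPM in ErbB4FF (median 4.69). The estimate was 0.82 ± 0.24 (limma log2 ± SE, p = 0.00998, adjusted p = 0.603, exact permutation p = 0.0312), and 0.97 without litter 6 (unadjusted p = 0.00643). Its litter 5 mean minus that of the other litters was -3.45, close to the value of Itgal.

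Of 26 other adhesion molecules, 15 passed the filter, 1 was higher and 2 were lower at an unadjusted p under 0.05, and the median difference was 0.13. Alcam, a homophilic adhesion molecule that binds CD6, was higher in 5 of 6 litters (0.22 ± 0.08, limma log2 ± SE, p = 0.0298, exact permutation p = 0.0625, adjusted p = 0.603). Siglec1, the sialic acid receptor of macrophages, was lower in 5 of 6 (-0.58 ± 0.23, limma, p = 0.0377, exact permutation p = 0.0938, adjusted p = 0.603). Pecam1 (CD31) was lower in 4 and higher in 1 of 6 litters (-1.25 ± 0.40, limma, p = 0.0158, exact permutation p = 0.125, adjusted p = 0.603), at low levels of at most 4.50 TPM and with libraries listed at 0 in both groups. Without litter 6 Alcam was at 0.24 (limma, unadjusted p = 0.0499) and Siglec1 at -0.68 (limma, unadjusted p = 0.0316), and Pecam1 was below the filter. Without litter 2 Siglec1 was at -0.36 (limma, unadjusted p = 0.0738), and it did not pass without litter 1, 3 or 4 either, while Alcam did not pass without litter 2, 3 or 4.

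The lists of inside-out activators and of matrix and soluble ligands gave no call at an unadjusted p of 0.05. Of 22 genes of inside-out activation, such as talin and kindlin, 16 passed the filter and none passed that p, with a median difference of -0.03. Of 17 genes of matrix and soluble ligands, 10 passed the filter, 9 of these had a mean difference above 0 and none passed that p. Fermt3, the kindlin of blood cells, was at 202 ± 31.2 TPM (SD, n = 6) in ErbB4myeKO and 212 ± 34.5 TPM in ErbB4FF.

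For each member, the gene whose pattern over the 12 libraries was nearest was found by the root mean square (RMS) difference of log2(TPM + 0.5) from its mean. Itgb1 was nearest to Epg5 (0.06), Itgb2 to Ascc2 (0.11), Itga5 to Nup214 (0.12) and Icam1 to Tap1 (0.13), the peptide transporter of antigen presentation. Itgav was nearest to the unconventional myosin gene Myo10 (0.21), Itgal to Golga4 (0.22) and Itga4 to Vps54 (0.23), and these transcripts have 8125, 7583 and 4323 bases. Those of Epg5 and Nup214 have 9660 and 6605 bases. Golga4 was at most 8.485 TPM and Epg5 at most 1.62 TPM, low levels at which the added 0.5 narrows differences on the log2 scale. Itgax was nearest to Alg8 (0.21) and Vcam1 to Smpdl3a (0.23). The median RMS difference from all genes tested was between 0.50 for Itgb1 and 1.70 for Itgav, and no member had another member as its nearest gene.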

How the data were processed

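BM-Mɸ RNA from 12 mice was sequenced by the authors as single-ended reads, pseudoaligned with kallisto and tested in sleuth with litter and sex as covariates (genome build mm10 per the labels, versions not given in the sources used here). The deposited values are TPM of transcripts marked as principal isoforms. The authors also deposited the mean natural log of normalized estimated counts of each transcript, which was turned back by exponentiation as a measure of depth. The authors' columns of test statistics, p-values, q-values and ratios were not used.

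The table's 29213 lines held 28808 transcripts, repeated identifiers were dropped, and TPM were summed for 22243 genes, of which 22241 matched GENCODE M21 by ID. Genes averaging 1 TPM or more were kept. The model, in limma 3.58.1 (R 4.3.3), was genotype plus a litter block on log2(TPM + 0.5), moderated by eBayes using trend, and p-values were adjusted by Benjamini-Hochberg over the 8780 genes. For single values the test was an exact two-sided permutation over 64 swaps within litters (smallest p 0.0312). Littermates are paired by the number and the batch letter on the labels, and their deviations from the group means correlated across genes at r = 0.273 to 0.774 in the 6 litters. Each mouse gave 1 library. The fit was also run on simulated data, with the outcome not reported here. Other steps ran in Python 3.11.15 (scipy 1.17.1, numpy 2.4.6, matplotlib 3.10.9, pandas 2.3.3).

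The members and the gene lists were chosen with earlier results of these data known. Genes named beside the members are the other integrin chains with a mean of at least 1 TPM, up to 5 genes per pathway list with an unadjusted p under 0.05 and the nearest gene of each member. Fermt3, Lyz2, Tnf, Il6, Cxcl9, Nos2, Adgre1, Cd68, Csf1r, Mertk and the marker genes were named after their values were seen, for their roles. Alternatives were no block, pseudocounts of 0.1 and 1, no filter or a mean of 5 TPM, other scalings, no trend, the highest transcript alone, a covariate from Y-linked genes and each litter left out, and, chosen after seeing the data, centring by transcript length. Sequences and positions come from GENCODE M21 (GRCm38) and RefSeq (GRCm38.p6), read by script, and 6 of 9 members matched the promoter table. Some results that these rules select are not reported here.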

Additional observations from a re-analysis of the deposited data

Results flagged for a closer look

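A single library lay far from the other 5 of its group, by Dixon's ratio of the gap to the range on log2(TPM + 0.5), in 7 of 27 sets of 6 values tested, and chance marks about 1 set in 20. All 7 are libraries of litter 5 and all are low. For Itgal the ratio was 0.722 in ErbB4myeKO and 0.753 in ErbB4FF, for Itgav 0.674 and 0.642, and for Itgb2 0.664 and 0.649. For Itga5 it was 0.785 in ErbB4FF only. None of the 9 sets of within-litter differences was marked.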

How the results depend on the processing

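Differences between genotypes were recomputed under 17 alternatives, and the order of levels and the chain ratios under 9 of these, and the cause of each change was not tested. The number of members at an unadjusted p under 0.05 was 3, and 0 without the replicate block that pairs littermates, under which the differences were the same in size but no longer passed for Itga4 (0.31), Itgav (0.30) and Vcam1 (0.25). With the Y-linked covariate Vcam1 was 0.22 and did not pass, and with centring by transcript length, chosen after seeing the data, Itga4 was 0.24 and did not pass. With each litter left out in turn the number ranged from 0 (without litter 6) to 5 (without litter 3), with 1 without litter 2 and 1 without litter 4, and the log2 differences ranged from 0.13 to 0.37 for Itgal, 0.26 to 0.62 for Itgax, -0.0063 to 0.17 for Itgb2, 0.20 to 0.39 for Itga4, -0.016 to 0.10 for Itga5, 0.24 to 0.39 for Itgav, 0.073 to 0.15 for Itgb1, 0.0019 to 0.13 for Icam1 and 0.18 to 0.30 for Vcam1. The sign turned for Itgb2 without litter 5 (-0.0063) and for Itga5 without litter 4 (-0.016) and without litter 5 (-0.0050), and the Itga5 to Itgb1 ratio turned without litter 3 (0.0032), with a range from -0.15 to 0.0032. Pairs of neighbours that kept their order in every litter numbered 3 to 5, with 5 without litter 5. No member passed an adjusted p under 0.05 in any alternative, and 1 other gene did without litter 3. Of the genes named beside the members, an unadjusted p under 0.05 was kept in 11 of 17 alternatives by Siglec1 (-0.73 to -0.36), Il12b (0.75 to 1.42), Alcam (0.16 to 0.27) and Cxcl10 (-0.20 to -0.13), in 12 by Xcr1, in 13 by Bcl3, in 16 by Fcgr1 and Itgb8, in 14 of 15 by Pecam1 and in 12 of 16 by Camp (0.36 to 0.55). With 5 litters the smallest exact p is 0.0625. TPM carry no read depth, so Itgax, with the fewest normalized counts, is the least precise.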
